A study of Drosophila melanogaster with 2 samples.

Results

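The forkhead genes of Drosophila melanogaster encode transcription factors that share a winged-helix DNA-binding domain. The 9 genes described here are fkh, CHES-1-like, croc, bin, slp1, slp2, jumu, FoxK and FoxP, of 13945 protein-coding genes on the 6 chromosome arms that hold peaks. They were chosen by name from that family with the peak lists already known, so the peak counts, places, signals and replicate differences given for them are descriptions and are not tested. Peaks were taken as lying at a gene where the summit fell in the gene body or within 1 kb of it.

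The peaks come from chromatin immunoprecipitation followed by sequencing of the GATA factor GATAd in whole wandering larvae of the last instar, males and females pooled. All larvae were of 1 group, GATAd-GFP larvae, from 1 stable fly line whose GATAd carries a C-terminal green fluorescent protein (GFP), and the fusion was precipitated with an antibody against GFP. There were 2 biological replicates, numbered 2 and 3. No larvae without the transgene, no other tissue and no other stage were compared, and control libraries were not analysed here.

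As background, forkhead proteins bind DNA through the winged helix, and several act early in development to set the fate of an organ. In the fly, fkh, the FoxA gene, is needed for the salivary glands and the gut, croc, a FoxC gene, for parts of the head, and bin, a FoxF gene, for the visceral mesoderm. The slp1 and slp2 pair acts in segmentation. CHES-1-like and jumu belong to the FoxN branch, and jumu is known from blood cell development and from the silencing of genes near heterochromatin. FoxP is known from the adult brain, where it affects decisions and motor learning. GATA factors bind sites around the core GATA, and in the fly several GATA factors act in the gut, the heart, the fat body and blood cells.

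On the dm6 build the thresholded list, made with the irreproducible discovery rate (IDR, which scores how well peak ranks agree between replicates), held 1205 peaks, with the authors' signal between 43.9 and 547 and a median of 65.2. These were the 1205 strongest of 30000 candidates called on both replicates pooled. Each replicate has its own list of 30000 candidates, which ends at a signal of 9.56 in replicate 2 and 6.42 in replicate 3. The signal is the value the authors deposited for each peak, on a scale that the records do not name and that may differ between replicates, so ratios between replicates are also given relative to the median ratio of all IDR peaks. Ranks count from 1 for the strongest peak of a list. Each peak has 1 value per list, so no standard deviation is given, and the read depth is unknown.

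Among the 9 forkhead genes, 3 had IDR peaks, namely CHES-1-like with 5, fkh with 1 and jumu with 1. Across all protein-coding genes 11.6% had at least 1 such peak. The 7 peaks had signals from 53.0 to 161 with a median of 68.3. The other 6 genes, croc, bin, slp1, slp2, FoxK and FoxP, had none, and their nearest IDR summits lay between 12218 bp (slp1) and 247088 bp (bin) from the gene. By place, 3 of the 7 summits (42.9%) were within 1 kb of a transcription start site (TSS), against 69.8% of all IDR peaks. The remaining 4 (57.1%) lay in introns farther from a TSS, a class that held 20.7% of all IDR peaks. These 4 came from 2 genes, 3 from CHES-1-like and 1 from jumu, so the share mostly describes 1 gene. Of the 7, 4 (57.1%) were among the 1205 strongest candidates of each replicate, against 54.4% of all IDR peaks.

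**Figure D1:**
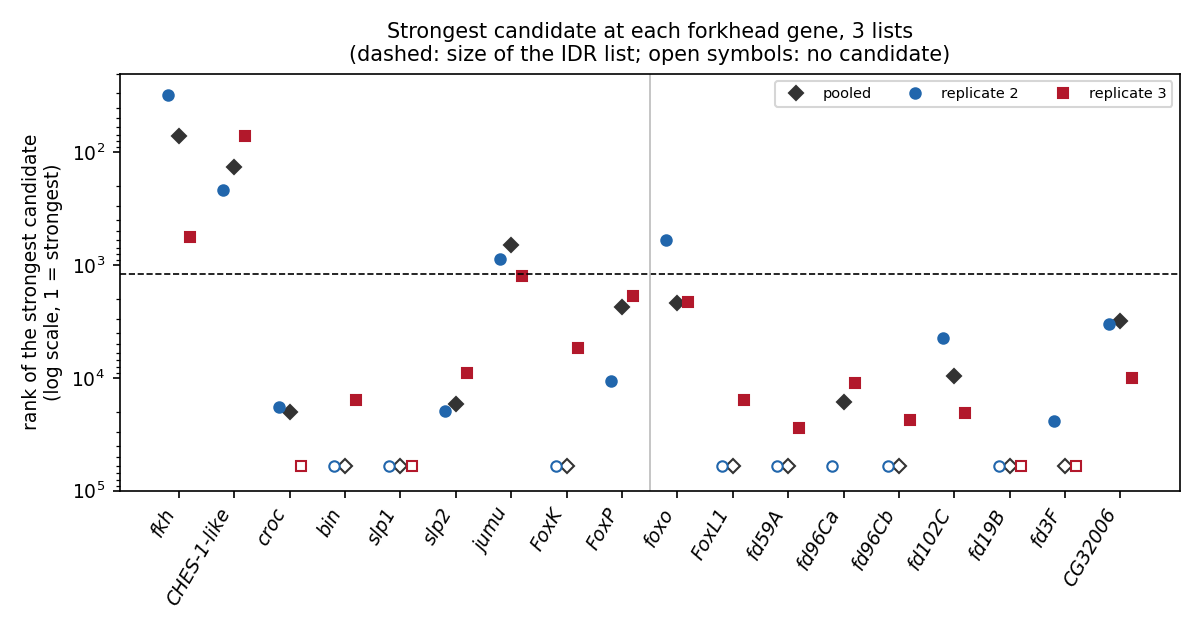
Rank of the strongest candidate at each forkhead gene in the pooled list and in the lists of replicates 2 and 3, on a log axis with the strongest at the top. The 9 genes described here are left of the grey line and the 9 other forkhead genes right of it; open symbols at the bottom mark lists with no candidate, and the dashed line is at rank 1205.

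The fkh peak was the strongest of the 7 and the only one at a promoter outside any intron. It spanned 161 bp on 3R from 28585422 to 28585582, where the median width of the IDR peaks was 384 bp and 12 were no wider than this one. Its pooled signal of 161 ranked 72. The summit lay 220 bp upstream of the TSS at 28585264, the more upstream of the 2 TSSs annotated for fkh (FBgn0000659, 28580976 to 28585264, minus strand). Every fkh transcript is a single exon, so the gene has no intron. The next gene, Noa36, has its TSS 13804 bp from the summit, and the summit is intergenic.

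Both replicates listed the fkh peak, at very different ranks. Its signal was 126 in replicate 2, where it ranked 31, and 35.2 in replicate 3, where it ranked 567. The replicates placed the summit at 28585472 (replicate 2) and 28585484 (replicate 3), the second being also the pooled summit. The replicate 2 peak was narrow, from 28585423 to 28585581, and the replicate 3 peak ran from 28585282 to 28585685. The log2 ratio of replicate 3 to replicate 2 was -1.84. Over the 1168 IDR peaks with a candidate in both replicates the median of that ratio was -0.20 with an SD over peaks of 0.75. Relative to this median fkh stood at -1.65, the 17th lowest of the 1168. With 1 library per replicate this difference has no test. The only other candidate at fkh lay past its 3' end, with a pooled signal of 18.1 at rank 12635.

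CHES-1-like (FBgn0029504, X, 7682338 to 7709385, minus strand) is 27.0 kb long and has 4 transcripts, each with a TSS of its own, that share their coding exons at the 3' end. All 5 of its IDR summits lay in introns, upstream of the first coding exon, and all 5 fell in the 18998 bp first intron (7689997 to 7708994) of the longest transcript. In the direction of transcription they lay 2373, 3784, 10964, 12242 and 16519 bp from the first TSS. The 2nd and the 4th were also within 1 kb of a TSS of a shorter transcript, 638 and 439 bp from it. For all 5 the nearest TSS was one of CHES-1-like, and the nearest TSS of another gene, CG15478, was 8104 to 22250 bp away.

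**Figure D2:**
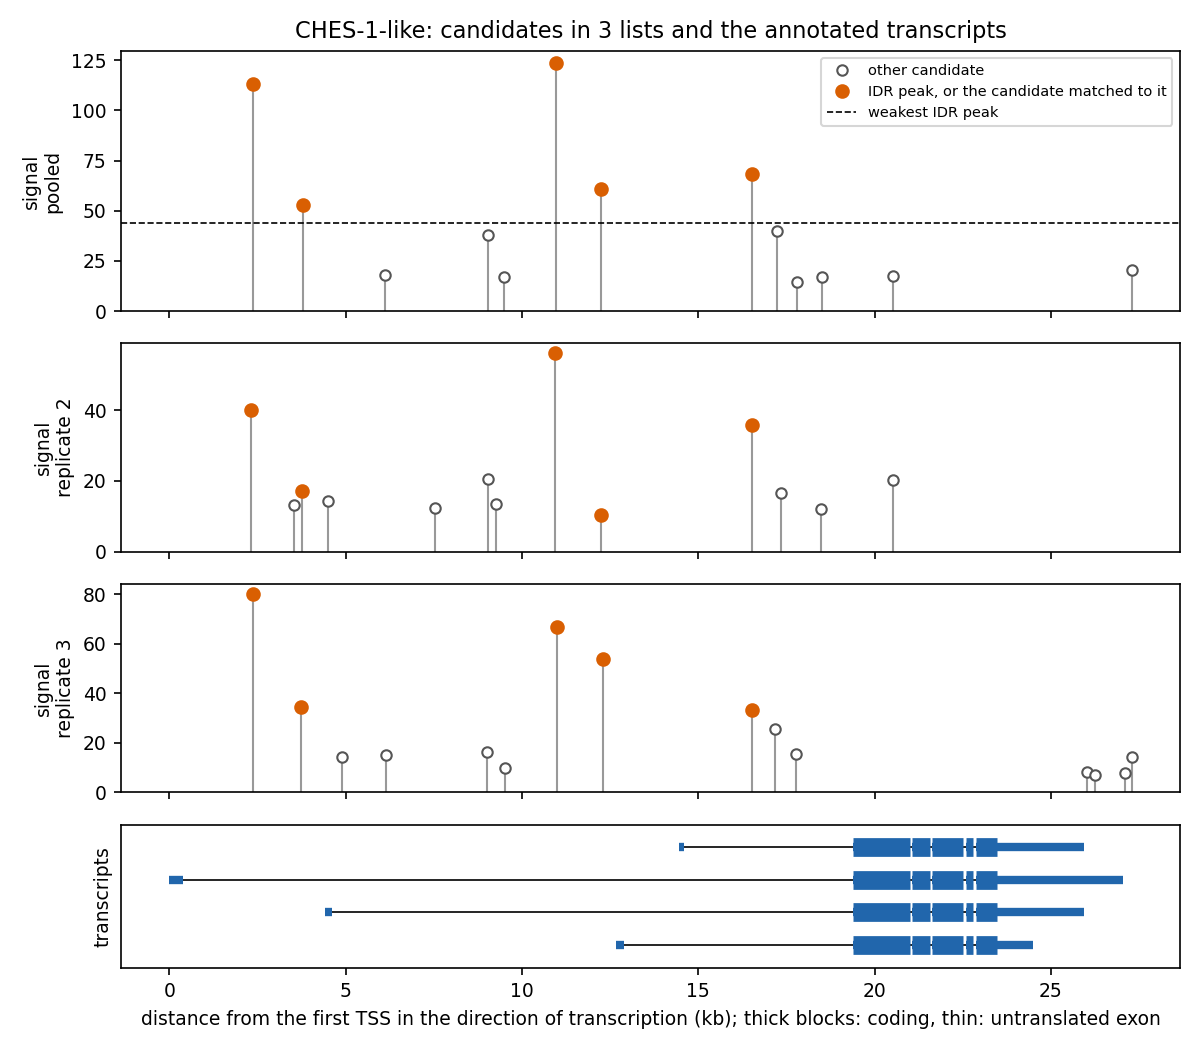
Candidates at CHES-1-like by distance from its first TSS (x, kb) and signal (y) in the pooled list, replicate 2 and replicate 3, each with its own axis, above the 4 annotated transcripts. Filled points are the 5 IDR peaks, with pooled signals from 53.0 to 124 above the dashed line of the weakest IDR peak (43.9), and the candidates matched to them; open points are the other candidates.

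The strongest CHES-1-like peak, with its summit at 7698421 and 1717 bp upstream of the nearest TSS, had a pooled signal of 124 and rank 134. It had 56.0 in replicate 2 (rank 215) and 66.5 in replicate 3 (rank 113). The peak closest to the first TSS, at 7707012, had a pooled signal of 113 and rank 163, with 39.9 in replicate 2 (rank 472) and 80.1 in replicate 3 (rank 72). Both stood high in each replicate, and the one at 7707012 was the strongest CHES-1-like candidate of replicate 3. The peak nearest to the coding exons, at 7692866, had a pooled signal of 68.3 (rank 550), 35.7 in replicate 2 (rank 603) and 33.1 in replicate 3 (rank 647). It lay in an intron of all 4 transcripts and was the most even of the 5, with a log2 ratio of replicate 3 to replicate 2 of -0.11.

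The 2 CHES-1-like peaks near internal promoters were those on which the replicates differed in rank most. The peak at 7697143, 439 bp upstream of the TSS at 7696704, had a pooled signal of 61.1 (rank 685), with 10.4 in replicate 2 at rank 24478 and 53.6 in replicate 3 at rank 189. Its ratio, 2.57 above the median on the log2 scale, was the 2nd highest of the 1168 peaks. The replicate 2 value is close to the end of that list at 9.56. The peak at 7705601, 638 bp upstream of the TSS at 7704963, had a pooled signal of 53.0 (rank 868), 17.2 in replicate 2 (rank 4320) and 34.5 in replicate 3 (rank 585). Neither was among the 1205 strongest peaks of replicate 2, and both were in replicate 3. All 5 CHES-1-like peaks had ratios above the median of all IDR peaks, by 0.08 to 2.57, while the fkh peak lay below it.

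Counted in 1 replicate alone, the number of CHES-1-like sites differed. The 1205 strongest candidates of replicate 3 included 6 with a summit at CHES-1-like, and those of replicate 2 included 3. The additional one in replicate 3, at 7692203, had a signal of 25.6 and rank 1112. In the pooled list the candidate at this place, with its summit at 7692155, fell just outside the IDR list, with a signal of 40.0 and rank 1426. Close below it was another at CHES-1-like, with its summit at 7700355, a signal of 37.7 and rank 1566. Near that place replicate 2 had 20.4 (rank 2278) and replicate 3 had 16.3 (rank 2852). The weakest CHES-1-like peak inside the list had 53.0. In all the gene held 13 pooled candidates, 13 candidates in replicate 2 and 15 in replicate 3. Of its pooled candidates 38.5% were IDR peaks, where 1205 of all 30000 pooled candidates were.

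**Figure D3:**
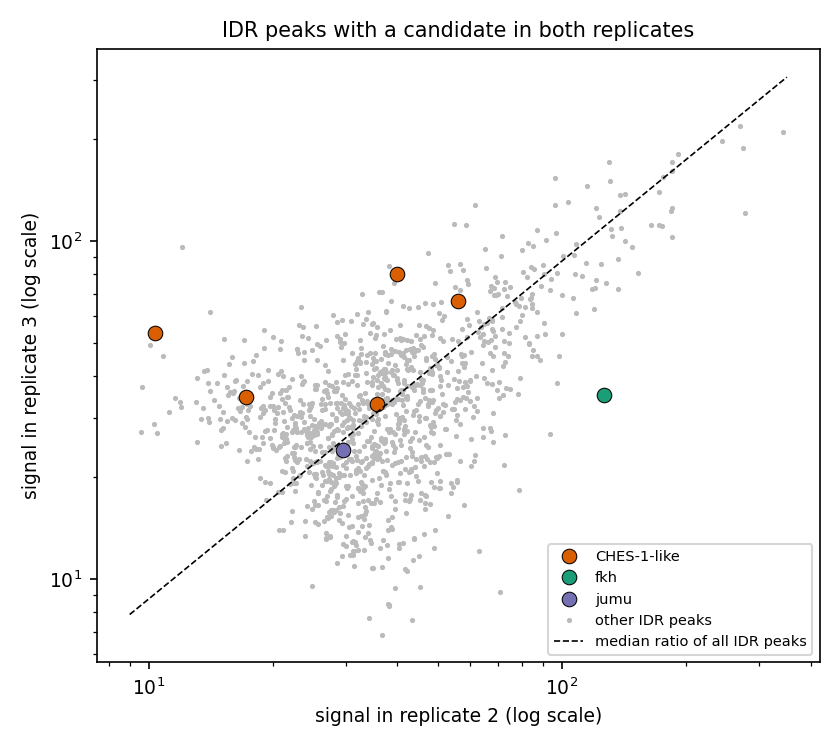
Signal in replicate 2 (x) and replicate 3 (y), both on log axes, of the 1168 IDR peaks with a candidate in both lists, with the peaks of CHES-1-like, fkh and jumu coloured. The 5 CHES-1-like peaks lie on or above the dashed line of the median ratio (log2 -0.20), and the fkh peak, with 126 and 35.2, lies far below it.

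Only 3 of 13945 protein-coding genes (0.0215%) had 5 or more IDR summits by the same count, CHES-1-like with 5, sbb with 6 and kirre with 5. CHES-1-like is the shortest of them at 27.0 kb, where sbb is 79.1 kb and kirre 394 kb. Of the 744 genes as long as CHES-1-like or longer, itself included, 24.7% had an IDR summit and 0.403% had 5 or more. The median gene of those 744 had 0 IDR summits and 13 pooled candidates, and CHES-1-like also had 13 pooled candidates. Per kb of gene and flanks CHES-1-like had 0.172 IDR summits, against 0.0740 at sbb and 0.0126 at kirre, while the 6 arms as a whole had 0.00900. This density depends on gene length, and short genes with few summits exceed that of CHES-1-like. An example is BEAF-32, with 2 summits and a length of 2162 bp.

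The 10 genes with the most IDR summits, the rule used to find patterns most like that of CHES-1-like, also held Raf, larp and CG1677 with 4 each and ph-p, Ptpmeg2, Atat and Tlk with 3 each. More genes had 3 summits, and those with the largest summed signal were taken. Among these, ph-p (0.212 per kb), Atat (0.198 per kb) and larp (0.197 per kb) had denser summits than CHES-1-like, and all 3 are shorter genes (12.2, 13.2 and 18.3 kb). The likeness is a count over 1 list of peaks, and genes that overlap share their summits.

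**Figure D4:**
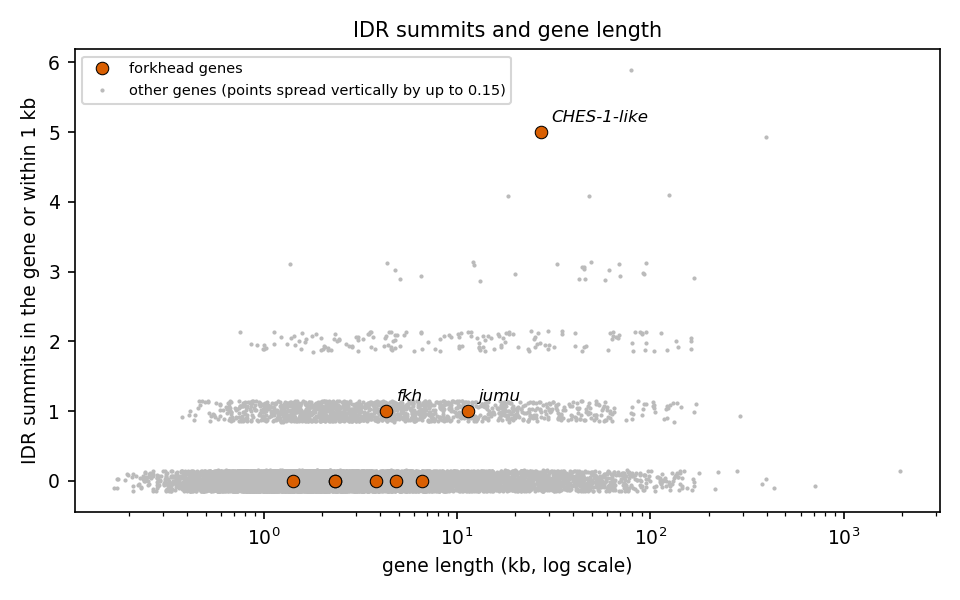
IDR summits in the gene or within 1 kb (y) against gene length in kb on a log axis (x) for all 13945 protein-coding genes, with the 9 forkhead genes as large points. CHES-1-like stands at 5 summits, fkh and jumu stand at 1, and the other 6 forkhead genes at 0.

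The 5 summits of CHES-1-like spanned 14146 bp. Counted from the 3' to the 5' end of the gene, successive summits were 4277, 1278, 7180 and 1411 bp apart. The median gap between neighbouring IDR summits on an arm was 49008 bp over 1199 gaps. A 6th IDR peak lay just outside the 1 kb limit, on X from 7710690 to 7711073, with its summit 1497 bp upstream of the first TSS. CHES-1-like has the nearest TSS to this peak as well. Its pooled signal was 74.9 (rank 452), with 47.5 in replicate 2 and 24.6 in replicate 3, so it was stronger in replicate 2, unlike most of the peaks inside the gene. With it, the cluster held 6 IDR summits in 18016 bp. On its other side the next IDR summit was 357363 bp from the gene. Of 1181 runs of 5 consecutive IDR summits on an arm, 5 were as tight as 14146 bp or tighter, and 2 of those were in this cluster.

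The jumu gene (FBgn0015396, 3R, 10350182 to 10361612, plus strand) is 11.4 kb long with 1 transcript. Its IDR peak, from 10356843 to 10357226, had its summit in the 7511 bp first intron, 6853 bp downstream of the TSS. The pooled signal was 62.5 (rank 656). It had 29.5 in replicate 2 (rank 889) and 24.1 in replicate 3 (rank 1247), just past the 1205 strongest of that list. The ratio between replicates was close to the median of all IDR peaks, at -0.10 relative to it on the log2 scale. A second pooled candidate overlapped this peak, with its summit at 10357282 and a signal of 38.1 (rank 1532), below the IDR list. Replicate 2 split the site in the same way, with a candidate of 22.5 at 10357308 (rank 1688), and replicate 3 had one of 11.5 at 10357241 (rank 6993). No pooled candidate lay within 1 kb of the jumu TSS. Each replicate had a weak one there at a different place, 824 bp downstream with 13.5 (rank 10826) in replicate 2 and 571 bp upstream with 7.69 (rank 20574) in replicate 3. Farther into the intron, stronger candidates also differed in place. Replicate 3 had one of 21.6 (rank 1542) 1193 bp downstream of the TSS, and replicate 2 had one of 21.9 (rank 1811) 3226 bp downstream.

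The other 6 genes had weak candidates or none. FoxP (FBgn0262477), 4.85 kb long on 3R, came closest to the IDR list with a pooled candidate of signal 31.0 (rank 2352), which was 19.6 in replicate 3 (rank 1895). Its summit at 9725801 lies past the 3' end of FoxP, 4474 bp from the nearest FoxP TSS, and within 1 kb of the TSS of another gene. The strongest candidate of replicate 2 at FoxP had 13.6 (rank 10640), in the 3' UTR. Each list also had weak candidates within 1 kb of a FoxP TSS. The pooled list had one of 14.5 (rank 24717) in the 5' UTR, 575 bp from a TSS, and replicate 3 had one of 10.9 (rank 8275) in the 5' UTR, 449 bp from a TSS. Replicate 2 had one of 13.2 (rank 11677), 257 bp upstream of the first TSS, and one of 9.65 (rank 29339), 91 bp from a TSS.

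FoxK (FBgn0036134), a gene with 4 TSSs on 3L, had no pooled candidate and none in replicate 2. Replicate 3 had 3 candidates there, the strongest with 12.7 (rank 5413) past the 3' end. That one lay 4670 bp from the nearest FoxK TSS and within 1 kb of the TSS of another gene. Another lay in the 5' UTR, 83 bp from a TSS, with a signal of 11.1 at rank 7719.

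Of the segmentation pair, slp1 (FBgn0003430) had no candidate in any of the 3 lists, and slp2 (FBgn0004567) had 2 in each. The strongest at slp2 had a pooled signal of 16.5 (rank 17072). The gene croc (FBgn0014143) had 1 pooled candidate of 15.7 (rank 19927), in its coding exon, 2 in replicate 2 and none in replicate 3. The gene bin (FBgn0045759) had candidates in replicate 3 alone, the stronger with 8.59 (rank 15795), 217 bp downstream of its TSS. In the pooled list 6 of the 9 genes had a candidate of any strength, against 63.0% of all protein-coding genes. The candidate lists include background by design.

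The bases around the summits differed between the 3 genes, and all 7 windows are printed so that the fkh promoter can be read beside the CHES-1-like and jumu introns. Each window runs 75 bases to either side of the summit, on the plus strand of dm6, and was read from RefSeq's Release 6 assembly. Capitals mark the GATA factor word searched here on either strand. Its forms are AGATAA, a variant ending in G written AGATAG, and the same pair with T in the first place, which are TGATAA and the variant TGATAG.
fkh, chr3R:28585409-28585559: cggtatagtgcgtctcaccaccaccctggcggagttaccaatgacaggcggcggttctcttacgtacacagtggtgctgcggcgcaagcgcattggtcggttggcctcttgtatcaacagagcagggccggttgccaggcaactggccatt
CHES-1-like, chrX:7692791-7692941: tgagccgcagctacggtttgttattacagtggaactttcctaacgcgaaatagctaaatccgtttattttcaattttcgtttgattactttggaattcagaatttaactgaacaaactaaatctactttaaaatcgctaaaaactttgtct
CHES-1-like, chrX:7697068-7697218: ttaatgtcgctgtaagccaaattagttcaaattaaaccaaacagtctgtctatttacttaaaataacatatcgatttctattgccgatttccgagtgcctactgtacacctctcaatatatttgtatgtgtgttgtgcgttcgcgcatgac
CHES-1-like, chrX:7698346-7698496: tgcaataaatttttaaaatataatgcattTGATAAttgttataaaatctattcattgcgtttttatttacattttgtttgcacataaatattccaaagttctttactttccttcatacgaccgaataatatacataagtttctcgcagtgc
CHES-1-like, chrX:7705526-7705676: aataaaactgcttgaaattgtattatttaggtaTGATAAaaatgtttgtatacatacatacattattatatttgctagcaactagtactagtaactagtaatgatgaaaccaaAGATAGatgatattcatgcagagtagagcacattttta
CHES-1-like, chrX:7706937-7707087: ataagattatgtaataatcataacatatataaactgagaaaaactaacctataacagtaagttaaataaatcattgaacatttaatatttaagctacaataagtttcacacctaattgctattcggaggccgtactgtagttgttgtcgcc
jumu, chr3R:10356960-10357110: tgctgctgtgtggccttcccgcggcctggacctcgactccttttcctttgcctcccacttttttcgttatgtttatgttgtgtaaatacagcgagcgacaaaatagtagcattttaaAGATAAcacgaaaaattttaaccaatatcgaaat

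GC content within 100 bp of the summit was 63.7% at fkh, the highest of all 1205 IDR peaks, where the 95th percentile of the peaks at no forkhead gene described here was 48.8%. The median was 36.3% over all IDR peaks and 35.8% over those within 1 kb of a TSS. The CHES-1-like summits had GC contents of 27.4, 28.4, 28.9, 32.8 and 35.8%, the last equal to the median within 1 kb of a TSS. The jumu summit had 39.3%. The GC-rich fkh window was at a peak much stronger in replicate 2. In the same order of GC content, the CHES-1-like peaks had log2 ratios 0.44, 1.20, 1.20, 0.08 and 2.57 above the median. The highest ratio of the 5 was thus at the window with the highest GC content of the 5. The part of base composition in the replicate difference was not tested.

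**Figure D5:**
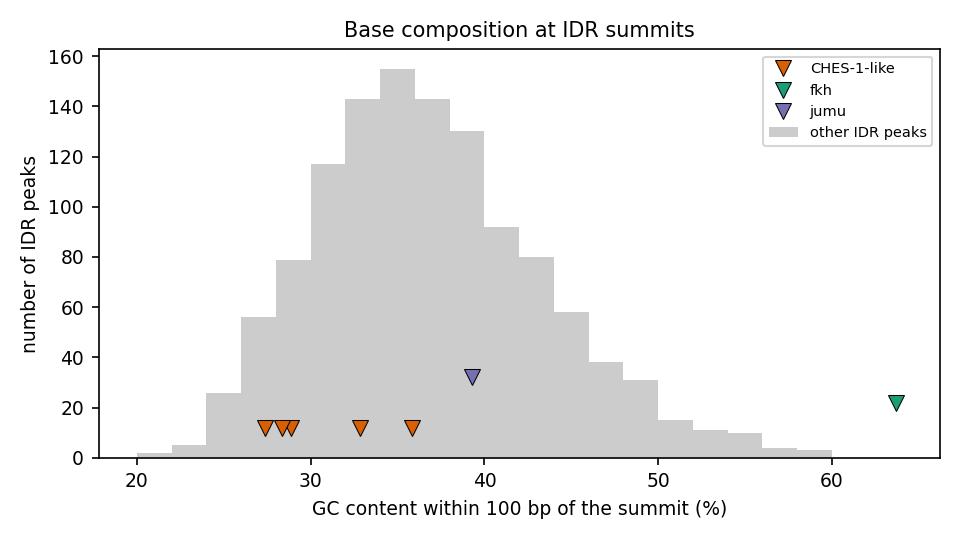
GC content within 100 bp of the summit (x, %) for the IDR peaks at no forkhead gene described here (grey bars, number of peaks) and for the single peaks of CHES-1-like, fkh and jumu (triangles, whose height has no meaning). The fkh peak at 63.7% lies past the end of the bars, and the 5 CHES-1-like peaks lie between 27.4 and 35.8%.

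The GATA factor word lay within 100 bp of 3 of the 7 summits (42.9%), against 41.2% of all IDR summits. In the CHES-1-like gene it was at 2 of 5, as TGATAA from 7698375 to 7698380 at the strongest peak and as TGATAA (7705559 to 7705564) and AGATAG (7705639 to 7705644) at the weakest. The jumu summit had AGATAA from 10357077 to 10357082. The fkh window and the CHES-1-like windows at 7692866, 7697143 and 7707012 had none. The summit windows of CHES-1-like held 3 such words in 1005 bp, or 2.99 per kb, and the rest of the gene and its flanks held 55, or 1.96 per kb. The summit windows cover 1005 of the 29048 bp searched, so most words would lie outside them in any case. The density in the windows rests on 3 words.

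The shorter word GATA, which the longer one contains, was at 5 of the 7 summits (71.4%), fkh among them, and at 79.7% of all IDR summits. The fkh window has it once, as TATC on the plus strand from 28585520 to 28585523. The summits without it were those at 7692866 and 7707012. A core word of forkhead proteins, TGTTTA, was searched on both strands as well, and lay at 1 of the 7 summits, against 29.2% of all IDR summits. That summit was the one in the jumu intron, from 10357029 to 10357034, next to the pooled summit at 10357035.

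The core promoter word TATCGATA (DRE) was at 0 of the 7 summits, against 5.81% of all. GAGAG, the word of GAGA factor, was at 2, both at CHES-1-like, against 25.2% of all. The control words CCAGG and CCTGG were at 3 of the 7 and at 12.1% of all, and fkh held 3 of them. A match is a run of letters and does not show binding, and with 7 windows these shares are coarse. For 3 of 7, the Wilson 95% interval runs from 15.8 to 75.0%, which covers the counting of peaks only. It takes the 7 windows as independent, although 5 of them lie at 1 gene, CHES-1-like.

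The rest of the forkhead family, foxo, FoxL1, fd59A, fd96Ca, fd96Cb, fd102C, fd19B, fd3F and CG32006, had no IDR peak in 9 genes. Of all protein-coding genes 11.6% had one, and a list of 9 is too short to set apart from that share. The insulin-responsive gene foxo, at 31.0 kb, is longer than CHES-1-like and held 17 pooled candidates, yet its strongest had a pooled signal of 32.2 at rank 2164. That pooled candidate lay 207 bp from the nearest foxo TSS. The strongest foxo candidate of replicate 3 had 18.5 (rank 2130), 236 bp from the nearest foxo TSS. The strongest of replicate 2 had 35.7 (rank 600) and was at another place, 825 bp from the nearest foxo TSS. The next was CG32006 on chromosome 4, with 27.7 in the pooled list (rank 3147). Of the 9 other genes 5 had no pooled candidate and 4 had at least 1, against 63.0% of all protein-coding genes with at least 1.

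Genes of the salivary gland, where fkh is known to act, were counted as a list of 19. The list has glue protein genes such as Sgs3, regulators such as sage and CrebA, and enzymes such as PH4alphaSG1. Which of these genes are active in wandering larvae was not assessed. None of the 19 had an IDR peak, against 11.6% of all protein-coding genes, and 12 had a pooled candidate, against 63.0%. The genes of this list are short, with a median length of 1.52 kb, and neighbours among them, such as Sgs7 and Sgs8, share candidates.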

How the data were processed

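Per the labels, chromatin of whole larvae was sheared by sonication and precipitated through the green fluorescent protein tag. Per the deposited file records, the authors called candidate peaks for replicate 2, for replicate 3 and for both pooled, and an IDR-thresholded list. The signal is column 7 of the deposited lists, and the deposited score of column 9 was not used for any result. Aligner, peak caller and IDR threshold: not given in the sources used here. Lists on dm3 were not used.

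Coordinates are 1-based on dm6, and 0 peaks run past an arm of the Release 6 sequence. A summit is the start plus column 10. Genes and TSSs are the protein-coding ones of Ensembl's BDGP6 annotation on 6 arms. Replicate candidates were matched by an overlap of at least 1 bp, taking the nearest summit. Words were searched within 100 bp of the summit. Python 3.11.15, numpy 2.4.6 and pandas 2.3.3 were used, and placing, matching and word search were checked on made-up peaks with known answers.

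The members, lists and words were chosen with earlier results of these data known, and no test was made. Alternatives were the stronger part of the IDR list, each replicate alone, other flanks, promoter distances, overlaps and word windows, ranks in place of signals, and assignment to the nearest TSS. Named are all 9 genes, the other 9 forkhead genes, those of the 19 salivary gland genes with the strongest IDR peaks (there were none, and those given serve as examples), the 10 genes with the most IDR summits, and neighbours of the peaks.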

Additional observations from a re-analysis of the deposited data

How the results depend on the processing

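Of 46 alternative values, 39 stayed within set limits and 7 did not. The limits were 1.5 times the main count, the Wilson 95% interval of the main share, or 1 SD over the peaks. With 7 peaks these are wide, at 15.8 to 75.0% for 3 of 7, 40.9 for signal and 1.32 for the log2 ratio. Staying within them is therefore weak evidence of stability. A promoter share of 20%, in the strongest candidates of replicate 2 alone, counted as within the limits of the main 42.9%. The stronger 602 of the IDR peaks hold fewer peaks and higher signals by construction. Among them the forkhead genes had 4 peaks and CHES-1-like 3, and the median signal was 118. Of the 4, 100% were among the 1205 strongest of both replicates (57.1% of the 7), a share that choosing by pooled signal also tends to raise. Leaving out replicate 2 or replicate 3 and taking the 1205 strongest candidates of the remaining one, the CHES-1-like count was 6 or 3, and the cause was not tested. With summits in the gene body alone fkh had 0, since its summit is upstream of the gene. With a promoter distance of 250 bp, 14.3% of the 7 peaks were promoter peaks, fkh alone. The shares rest on 7 peaks, and the unknown read depth limits any reading of a missing candidate.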
